A study of Mus musculus with 6 samples.

Results

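In the single-cell libraries of adult striatum, 1198 barcodes had enough genes to be cells but were discarded because at least 10% of their UMIs came from mitochondrial genes. A UMI (unique molecular identifier) counts each captured transcript once, and a barcode marks the contents of 1 droplet. The members were chosen by 2 measured values, the number of genes and the mitochondrial share, as all barcodes of the 3-month (3m) libraries with over 500 genes and with 10% or more of their UMIs in the 13 genes whose symbol starts with mt-. They made up 1198 of the 4383 3m barcodes with over 500 genes and of the 16690 barcodes of the whole series. The other 3185, under 10%, were exactly the 3m cells that the authors annotated, and they served as the comparison. The 2 sides are called rejected and kept below.

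The series compared wild type C57BL/6 male mice at postnatal day 3 (P3), an age at which astrocytes still mature, and at 3m, with 3 libraries per age. Striatum was dissociated, cleared of debris and red blood cells, and enriched for astrocytes with magnetic beads against ACSA2, an astrocyte surface antigen. Libraries were made with the 10x Chromium 3′ chemistry. Per the study's methods each preparation pooled several animals, so a library is a pool and not an animal, and p-values over libraries measure the spread between preparations only. Rejected and kept barcodes of a library came from the same suspension and sequencing run, and the age, strain, sex and enrichment were common to both sides. Doublets were not removed on either side. Across the 6 libraries 37 barcode sequences occurred in at least 2 libraries, and 5 of the rejected 3m barcodes had a sequence seen in another library.

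The mitochondrial genome encodes subunits of the respiratory chain, and its transcripts stay inside the organelle. A droplet rich in them is commonly taken as a damaged cell that has leaked its cytoplasm, and a fixed limit on the mitochondrial share is a standard filter in single-cell work. Cell types differ in how much mitochondrial RNA they hold, and astrocytes, which support neuronal metabolism, clear glutamate and buffer ions, are among the cells rich in mitochondria. *Malat1* is a long noncoding RNA kept in the nucleus, whereas mRNAs of ribosomal proteins are cytoplasmic.

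The filter removed very different parts of the 3 adult libraries. In 3m replicate 1 it removed 729 of 1530 barcodes with over 500 genes (47.6%), in 3m replicate 2 264 of 1663 (15.9%) and in 3m replicate 3 205 of 1190 (17.2%). 3m replicate 1 therefore held most of the members and stood apart from the others before any gene was examined. In the P3 libraries the same filter removed 31, 23 and 12 barcodes (1.22%, 0.629% and 0.238% of those with over 500 genes).

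The mitochondrial share chose the members, so it is described without a test. Its median was 15.2%, 12.8% and 13.3% in the rejected barcodes of 3m replicates 1, 2 and 3, against 7.38%, 4.52% and 4.65% in the kept ones. Most members lay close above the limit, with 70.1%, 92.8% and 88.8% of them between 10% and 20%. Shares of 20% or more were reached by 218, 19 and 23 barcodes, and shares of 40% or more by 56 barcodes, all in 3m replicate 1. The 3 members nearest to the limit had 10.004% to 10.009% and the 3 nearest kept barcodes 9.994% to 9.996%, and 102, 69 and 40 members lay within 1 percentage point of it.

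Rejected barcodes held both more mitochondrial and fewer other transcripts. The median barcode had 750, 278 and 302 mitochondrial UMIs on the rejected side and 560, 178 and 195 on the kept side of 3m replicates 1, 2 and 3. Its other UMIs numbered 3866, 1639 and 1660 on the rejected side and 6848, 3786 and 4173 on the kept side. In each library the excess in mitochondrial UMIs was thus smaller than the deficit in other UMIs. Summed over barcodes and without the mt- genes, the rejected side held 3131278, 689760 and 538739 UMIs and the kept side 6133364, 5968218 and 4484792 and the precision for low genes was poorest on the rejected side of 3m replicates 2 and 3. Another 347 3m barcodes had at most 500 genes, 263 of them with 10% or more mitochondrial UMIs, and were not used.

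The 13 mitochondrial genes did not rise in equal measure. Each gene's part of the mitochondrial UMIs is given here as a mean over the 3 adult libraries, as a description. Complex I and complex III transcripts took a larger part on the rejected side of each library, with mt-Cytb (cytochrome b) at 16.5% against 15.5%, mt-Nd4 at 7.78% against 6.93%, mt-Nd2 at 5.73% against 4.99%, mt-Nd5 at 1.58% against 1.27% and mt-Nd4l at 1.44% against 1.22%. The cytochrome oxidase and ATP synthase transcripts took a smaller part in each library. mt-Co1 stood at 15.2% against 16.3%, mt-Co2 at 13.5% against 14.04%, mt-Co3 at 14.2% against 14.6%, mt-Atp6 at 16.8% against 17.3% and mt-Atp8 at 0.666% against 0.727%. The complex I gene mt-Nd3 went with the second set, at 1.65% against 2.06%, while mt-Nd1 and mt-Nd6, the latter read from the other strand, were higher in 1 and in 2 of 3 libraries. The largest mean shift was -1.08 percentage points, in mt-Co1. Cell types differed between the sides, and their part in these shifts was not tested.

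To see which cells the filter had removed, every 3m barcode was matched to the authors' cell classes by its other genes. The match gave a barcode the class whose expression profile, summed over the kept cells of the other 2 adult libraries, made its counts most likely. On kept cells it returned the authors' class for 98.1%, 98.1% and 98.6% in 3m replicates 1, 2 and 3. Astrocytes made up 74.6%, 83.7% and 75.6% of the rejected barcodes and 25.7%, 38.2% and 35.8% of the kept ones. The rejected side had the larger astrocyte share in each library, with no overlap between the sides, and the mean rose from 33.2 ± 6.62% to 78.0 ± 4.99% (SD, n = 3 libraries), a difference of 44.7 percentage points. Oligodendrocytes, the myelin-forming cells, went the other way, from 55.6 ± 3.53% to 18.2 ± 5.65%. With 3 pairs an exact sign-flip permutation test (two-sided) cannot give a p below 0.25, which is the value of both differences.

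**Figure D1:**
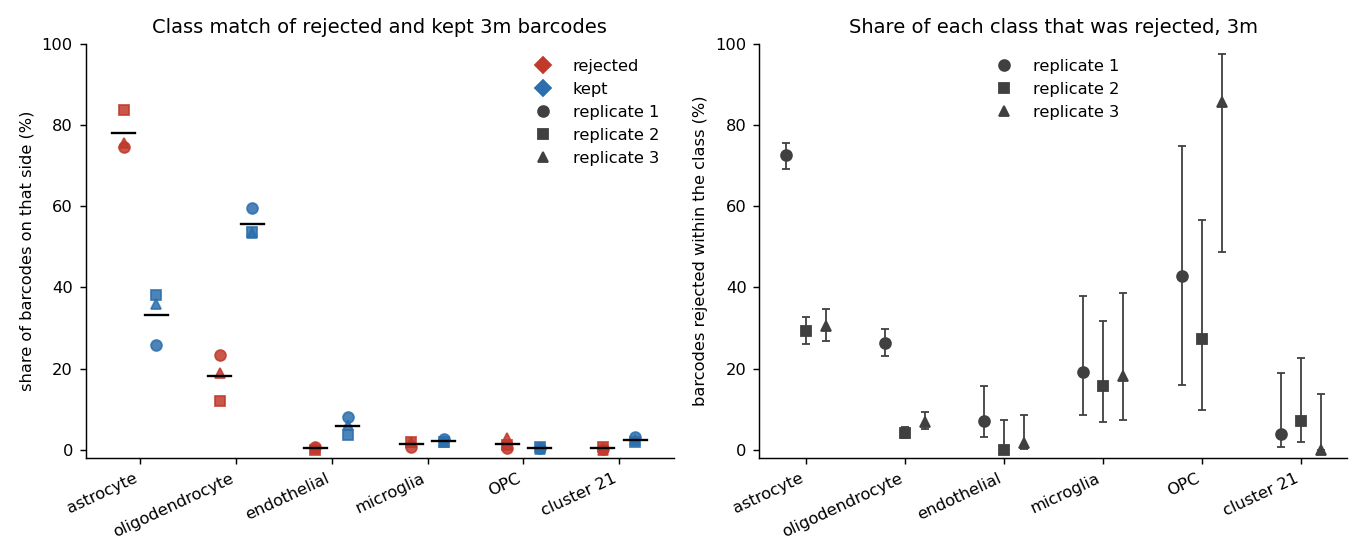
Left, share of the barcodes on each side matched to each cell class (percent), with a point for each 3m library and a black line at their mean. Right, percent of each class that was rejected per library, with 95% Wilson intervals. Astrocytes average 78.0% of the rejected and 33.2% of the kept barcodes, oligodendrocytes 18.2% and 55.6%, and 72.5%, 29.3% and 30.5% of the astrocytes were rejected.

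Few rejected barcodes matched to endothelial cells, which line the vessels. They averaged 0.391% of the rejected and 5.94% of the kept barcodes, lower in all 3 libraries (p = 0.25, exact sign-flip test). The cluster that the authors numbered 21 and left unidentified averaged 0.298% against 2.47%. Pericytes, the other vessel class, averaged 0.172% against 0.222% and were higher in 1 of 3 libraries (p = 0.75, exact sign-flip test). The match returned the authors' class for only 7 of 16 kept pericytes, so this share is uncertain. A classifier by lists of marker genes, which had no cluster 21, returned 5 of 16. It gave pericytes 0.425% against 3.00%, lower in all 3 libraries (p = 0.25, exact sign-flip test). Microglia averaged 1.51% against 2.13%, lower in 2 of 3 libraries (p = 0.75, exact sign-flip test). Barcodes matched to oligodendrocyte precursors averaged 1.49% against 0.391% and were higher in 2 of 3 libraries (p = 0.5, exact sign-flip test). On the rejected side these were 12 barcodes, which cannot be called precursors for the reason given with *Meg3*, and the difference of 1.10 points was 0.24 without 3m replicate 3.

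Read per class, the share removed differed several-fold between cell types of the same library. Of the astrocyte-matched barcodes, 72.5% (95% Wilson interval 69.2% to 75.6%), 29.3% (26.1% to 32.6%) and 30.5% (26.7% to 34.6%) were removed in 3m replicates 1, 2 and 3. For oligodendrocyte-matched barcodes the figures were 26.2% (23.0% to 29.8%), 4.08% (2.91% to 5.71%) and 6.90% (5.09% to 9.30%), below those of astrocytes in each library with intervals that do not overlap. Endothelial-matched barcodes were removed in 5 of 70, 0 of 49 and 1 of 62 cases. These intervals cover counting error only.

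The same class difference can be read from the mitochondrial share itself, the value that set the filter, over all barcodes with over 500 genes. Its median was 12.6%, 7.38% and 7.20% in astrocyte-matched barcodes of both sides together, and 8.14%, 4.19% and 4.38% in oligodendrocyte-matched ones. In 3m replicate 1 the limit of 10% thus lay below the median astrocyte, and in the other 2 libraries above it.

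The filter changed the apparent makeup of the adult samples accordingly. Astrocytes formed 49.0%, 45.4% and 42.7% of the barcodes with over 500 genes before it and 25.7%, 38.2% and 35.8% after it. Oligodendrocytes formed 42.4%, 47.1% and 47.5% before and 59.7%, 53.8% and 53.4% after. Over the 3 libraries 920 of 2013 astrocyte-matched barcodes (45.7%) and 241 of 1997 oligodendrocyte-matched barcodes (12.1%) were removed. 3m replicate 1 thus had the highest astrocyte share of the 3 libraries before the filter and the lowest after it.

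Gene expression of the members was compared with that of the kept barcodes on UMIs summed per library and side, without the mt- genes, using edgeR's quasi-likelihood test with the library as a block. Levels are CPM, a gene's UMIs scaled to 1 common library total, in the order 3m replicate 1, 2 and 3. Changes are log2 fold changes of rejected over kept with their SE, and a gene was called at a Benjamini-Hochberg adjusted p of at most 0.05. Of 12131 genes tested 2262 were higher (18.6%) and 2318 lower (19.1%), and the median change over all genes was 0.01. Of these, 1440 (11.9%) and 1251 (10.3%) also passed a 2-fold change. The classes of the 2 sides differed as described, so these sums mix makeup and expression, and in sums the number of cells of a type and the RNA per cell cannot be told apart.

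Astrocyte and oligodendrocyte markers went with the matched classes, although the match had used these genes too. Of 4 oligodendrocyte precursor markers tested 2 were lower and 1 higher (median -1.18), although the matched share averaged higher. All 10 astrocyte markers were higher (median change 1.59), among them *Slc1a2*, the main glutamate transporter, at 5026, 4420 and 5815 CPM in rejected and 1035, 1785 and 1764 CPM in kept barcodes (1.74 ± 0.17, adjusted p = 4.07e-05, edgeR). All 10 oligodendrocyte markers were lower (median -2.47). *Mbp*, myelin basic protein, stood at 2406, 2207 and 2547 against 4086, 3353 and 2788 CPM (-0.53 ± 0.14, adjusted p = 0.0141, edgeR). The sides did not overlap for either gene. The fall of *Mbp* did not hold with barcodes thinned to 1000 UMIs (0.07, adjusted p = 0.78, edgeR) or at mitochondrial shares of 20% or more (0.17, adjusted p = 0.797, edgeR).

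Markers of vessels and blood showed the largest losses. All 8 endothelial markers were lower with a median of -5.58. *Cldn5*, a tight junction protein of the blood-brain barrier, had 2.24, 2.90 and 5.57 CPM in rejected against 616, 105 and 241 CPM in kept barcodes (-7.31 ± 0.39, adjusted p = 3.75e-06, edgeR). The receptor phosphatase *Ptprb*, the surface proteins *Ly6c1* and *Ly6a* and the efflux pump *Abcb1a* followed, at -6.88, -6.20, -6.14 and -6.02. Of 7 pericyte markers 5 were lower, and *Ndufa4l2*, abundant in pericytes, changed by -5.93.

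The 4 haemoglobin genes were nearly absent from the rejected side. *Hbb-bt* had no UMI in any of the 3 rejected sums and 333, 75.7 and 137 CPM in the kept ones, at least 273-fold lower by a floor of 3 UMIs over the group. *Hba-a1* and *Hba-a2* each had 1 UMI on the rejected side against 8716 and 6993 on the kept side, and *Hbb-bs* had 5 against 18535. The median of the 4 was -11.31, or -10.75 with *Hbb-bt* at its bound.

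Microglial markers were lower in 8 of 9 cases (median -1.57), with the complement gene *C1qa* at 39.6, 37.7 and 12.99 against 152, 106 and 103 CPM. Neuronal genes were at very low levels on both sides, with the 12 markers summing to 170 to 239 CPM in rejected and 115 to 121 CPM in kept barcodes. Of the 10 that could be tested 6 were higher and 1 lower. *Ppp1r1b*, a signalling protein of striatal projection neurons, stood at 90.4, 112 and 121 against 23.6, 41.9 and 42.8 CPM, and *Snap25*, a synaptic vesicle fusion protein, at 19.5, 30.4 and 37.1 against 4.402, 9.89 and 7.58 CPM. *Tubb3* was lower at -1.21.

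The largest rise belonged to *Meg3*, a long noncoding RNA abundant in neurons. It had 30.7, 180 and 269 CPM in rejected and 9.46, 6.70 and 0.892 CPM in kept barcodes (4.25 ± 0.71, adjusted p = 0.00102, edgeR), without overlap between the sides. This rise rested on few droplets. Its UMIs by class, looked at after these values were seen, numbered 365 on the rejected side, of which 309 (84.7%) lay in the 12 barcodes matched to oligodendrocyte precursors, and 53 in the 920 matched to astrocytes. Other neuronal genes did not all lie there, since the 12 held 14 of 34 UMIs of *Syt1* and 13 of 27 of *Rbfox3* on that side but 6 of 102 of *Snap25*, 2 of 425 of *Ppp1r1b* and 1 of 17 of *Gad2*, while the astrocyte-matched barcodes held 16, 10, 73, 389 and 15. The profiles used for the match include no neurons, so a neuronal barcode would have been given another class, and these 12 cannot be called precursors.

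Of the other genes with the largest rises, *Gria1*, a glutamate receptor subunit, had 99.6, 326 and 245 CPM in rejected against 5.54, 38.0 and 12.04 CPM in kept barcodes (3.75 ± 0.23, adjusted p = 6.07e-06, edgeR). *Agt*, angiotensinogen, had 364, 940 and 536 against 20.9, 160 and 54.9 CPM (3.26 ± 0.25). *Slc6a11*, the GABA transporter GAT-3, had 719, 1560 and 1006 against 70.1, 262 and 123 CPM (2.96 ± 0.17). In each of these genes every rejected value lay above every kept value, and 3m replicate 1 was lowest on both sides. *Igsf1*, *Fndc5*, *Etnppl*, the intermediate filament gene *Gfap*, the mitochondrial glutamate carrier *Slc25a18* and the glycogen phosphorylase *Pygm* changed by 3.62, 3.04, 3.03, 2.88, 2.85 and 2.69. For comparison, the pan-astrocyte markers *Slc1a3* and *Aldoc* rose by 1.27 and 1.40.

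**Figure D2:**
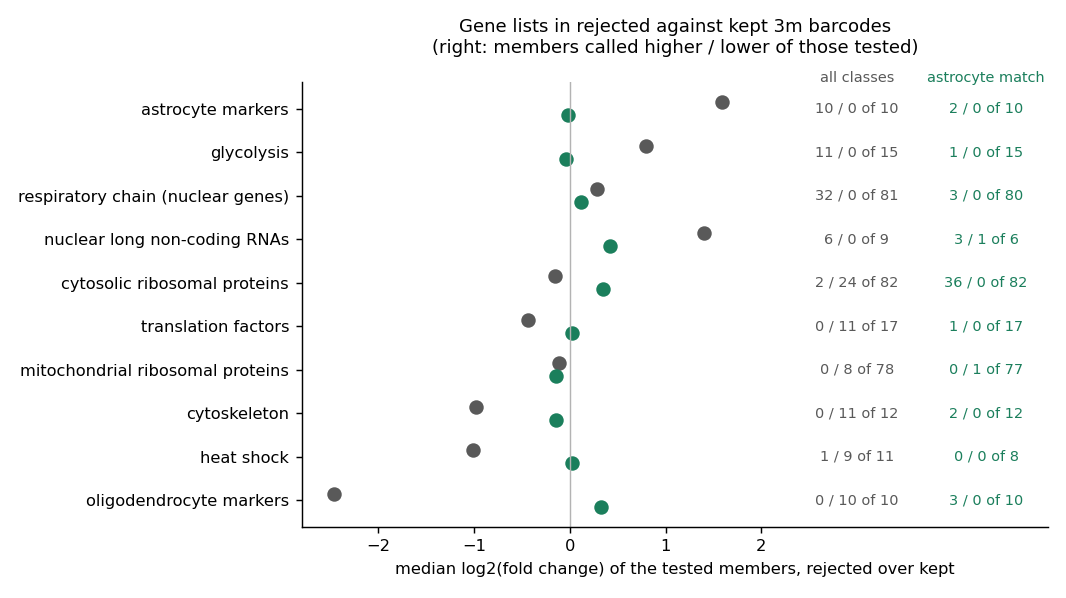
Median log2 fold change of rejected over kept 3m barcodes (horizontal axis) for 10 gene lists, over all classes (grey) and within the astrocyte match (green), with the number of members called higher and lower of those tested at the right. Over all classes the medians run from -2.47 for oligodendrocyte markers to 1.59 for astrocyte markers, and within the astrocyte match the cytosolic ribosomal proteins have a median of 0.35.

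Among lists of cell function, immediate early and heat shock genes were mostly lower in the rejected barcodes, where 19.1% of all genes were lower. All 9 immediate early genes, which neurons and glia induce within minutes of a stimulus such as dissociation, were lower (median -2.38), and *Fos* had 14.1, 5.80 and 3.71 against 79.1, 56.6 and 57.3 CPM. Of 11 heat shock genes 9 were lower and 1 higher (median -1.01), led by *Cryab*, a chaperone abundant in oligodendrocytes. Of 18 genes of p53 signalling and apoptosis 7 were lower and 1 higher, and the proapoptotic *Bax* had 93.6, 82.6 and 79.8 against 121, 116 and 119 CPM. The integrated stress response was split, with 3 of 9 genes higher and 3 lower.

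Between the whole sides, many genes of energy metabolism were higher and most cytoskeletal genes lower. Of 15 glycolysis genes 11 were higher and none lower (median 0.80), including *Ldhb* at 1294, 1416 and 1223 against 417, 581 and 574 CPM. Of 81 nuclear genes of the respiratory chain 32 were higher and none lower (median 0.29), with *Cox8a* at 2148, 3219 and 3590 against 1114, 1857 and 1803 CPM. *Gapdh* rose by 0.41 here, but stood at -0.38 when only barcodes with 20% or more mitochondrial UMIs were set against the kept ones. Of 12 cytoskeletal genes 11 were lower (median -0.98), among them *Tmsb4x* and *Stmn1*. Within the astrocyte match described next, only 1 of the 15 glycolysis genes was higher (median -0.04). Of 80 respiratory chain genes tested there 3 were higher and none lower (median 0.12), where 4.71% of all genes were higher. Within the oligodendrocyte match none of 78 was called (median -0.50). Of the 12 cytoskeletal genes none was lower within the astrocyte match and 2 were higher, *Tmsb4x* by 1.09 and *Tmsb10* by 1.08.

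The lists of nuclear genes that make and maintain the mitochondrion are read against the shares over all genes, 18.6% higher and 19.1% lower. Of 14 genes that replicate or express mitochondrial DNA, only the polymerase *Polg* was higher, and *Tfam*, the factor that packages it, had 36.1, 24.7 and 27.8 against 35.05, 23.3 and 27.7 CPM (0.02 ± 0.19, adjusted p = 0.953, edgeR). Of 78 mitochondrial ribosomal proteins 8 were lower and none higher, and of 17 import factors and chaperones 4 were lower. Mitophagy and dynamics genes were split, with *Pink1*, *Mfn1*, *Mfn2* and *Dnm1l* higher and *Bnip3*, *Bnip3l*, *Sqstm1* and *Fis1* lower.

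The astrocyte-matched barcodes allow the sides to be compared within 1 class, with 544, 221 and 155 rejected and 206, 534 and 353 kept barcodes. The match used all genes without the prefix mt-, and barcodes were included for resembling kept astrocytes, so the genes compared here also helped to choose them. Of 9134 genes tested 430 were higher (4.71%) and 221 lower (2.42%), together 7.13%, and 173 (1.89%) and 27 (0.296%), together 2.19%, also passed 2-fold. Between the whole sides 37.8% had been called and 22.2% had also passed 2-fold. Without the library as a block no gene was called, with 940 at an unadjusted p under 0.05, while DESeq2 with the block called 174 higher and 77 lower. The calls within the match therefore depend on comparing each rejected sum with the kept sum of its own library.

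Most astrocyte markers did not differ within the match. Of 10 only *Gfap* and *S100b* were called, both higher, and the median was -0.01. *Slc1a2* had 6543, 5037 and 6908 CPM in rejected and 5128, 4931 and 5184 in kept astrocytes (0.24 ± 0.11, adjusted p = 0.207, edgeR), and *Aldoc* had 5097, 3908 and 4425 against 5786, 4227 and 5161 (-0.20 ± 0.10, adjusted p = 0.281, edgeR). None of 8 heat shock genes and none of 13 p53 and apoptosis genes was called, where 7.13% of all genes were. *Jun* was the only immediate early gene of 3 called, lower at 122, 37.0 and 65.1 against 161, 73.1 and 126 CPM. Of 8 genes of the integrated stress response 2 were lower, *Phgdh* at -0.68 and *Psat1* at -0.64, both enzymes of serine synthesis, against 2.42% lower over all genes.

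A small set of genes was several-fold higher in the rejected astrocytes. *Gria1* had 125, 368 and 278 CPM against 19.7, 107 and 35.5 (2.31 ± 0.19, adjusted p = 2.03e-05, edgeR). *Kif5a*, a kinesin that carries mitochondria and other cargo along microtubules, had 462, 923 and 629 against 91.9, 312 and 78.9 CPM (2.20 ± 0.19, adjusted p = 2.03e-05, edgeR). *Trak2*, an adaptor that couples mitochondria to kinesin, had 127, 288 and 162 against 32.8, 96.1 and 13.8 CPM (2.07 ± 0.24, adjusted p = 0.000163, edgeR). In all 3 genes the rejected values lay above the kept ones without overlap.

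*Itih3*, an extracellular matrix protein, and *Igsf1* rose by 2.11 and 2.08, and *Agt* by 1.62. *Pink1*, the kinase that marks damaged mitochondria, had 153, 348 and 245 against 88.1, 180 and 81.1 CPM (1.06 ± 0.15, adjusted p = 0.000868, edgeR). The sides overlapped across libraries for *Pink1*, but the rejected value was the higher in each library. The fusion factor *Mfn2* also rose, by 1.11. *Pink1* and *Mfn2* were the only 2 called of 12 mitophagy and dynamics genes (median 0.05), where 7.13% of all genes were called. Within the profile of sub-clusters 7 and 14, described later, *Pink1* stood at -0.012 (adjusted p = 0.994, edgeR). *Kif5a* lies on the minus strand of chr10:127225696-127263348 and *Trak2* on that of chr1:58900449-58973430 (mm10).

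The genes that fell by the most in rejected astrocytes were *Vim*, *Atp1b1*, *Hes5*, *Fjx1* and *Acot1*. *Hes5*, a Notch target, had 446, 108 and 209 CPM against 594, 568 and 489 (-1.24 ± 0.23, adjusted p = 0.00537, edgeR), without overlap. *Atp1b1*, a sodium pump subunit, had 422, 87.5 and 213 against 534, 396 and 648 CPM. *Vim* had 25.8, 20.2 and 15.7 against 31.9, 140 and 26.8 CPM, and its difference was largest in 3m replicate 2. There the kept astrocytes also held ependymal transcripts, with the ciliary genes *Tmem212* and *Ccdc153* at 224 and 182 CPM, against 0 and 1.68 CPM in the rejected ones. In the other libraries both genes were at 0, and their part in the difference of *Vim* was not tested. Within the profile of sub-clusters 7 and 14, described later, *Vim*, *Atp1b1*, *Hes5*, *Fjx1* and *Acot1* stood at -0.46, -0.28, -0.58, -0.31 and -0.46. None of them was called there. Within profile 13 *Acot1* was lower (-1.95, adjusted p = 0.00225, edgeR), *Atp1b1*, *Hes5* and *Fjx1* were not called and *Vim* was not tested.

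**Figure D3:**
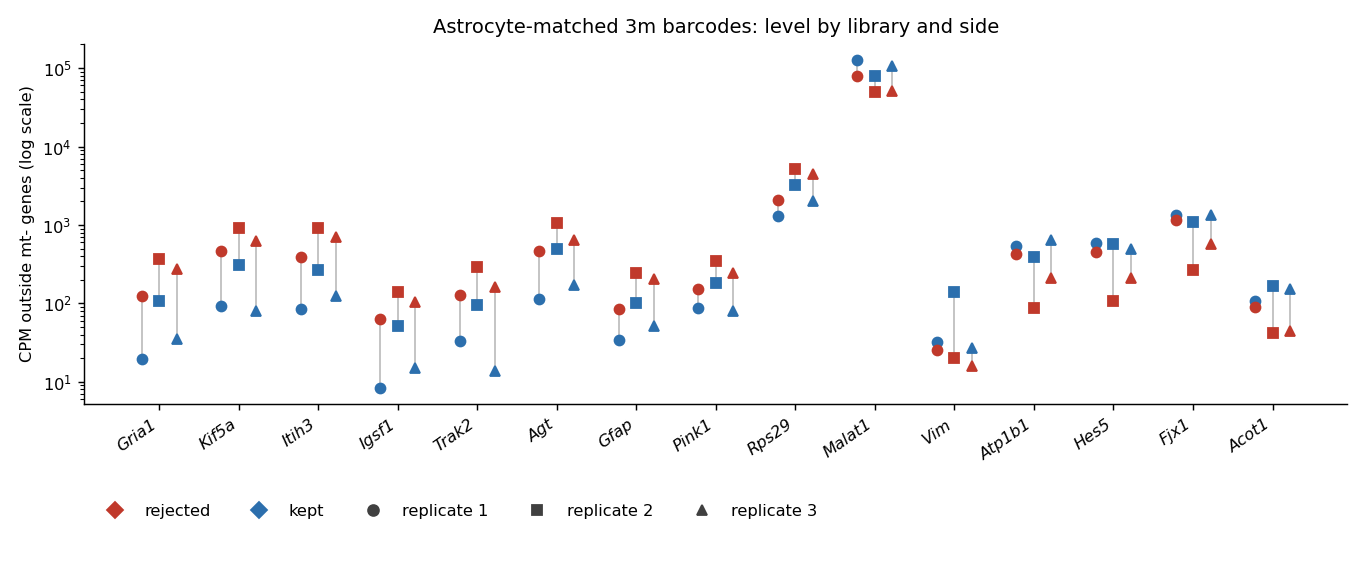
Levels of 15 genes within the astrocyte match (CPM on a log axis) in rejected and kept barcodes, with a grey line joining both sides of a 3m library. The rejected points of Kif5a lie at 462, 923 and 629 CPM and the kept ones at 91.9, 312 and 78.9 CPM, and those of Hes5 at 446, 108 and 209 against 594, 568 and 489 CPM.

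Transcripts of other cells were also higher in rejected astrocytes. *Mbp* had 969, 1892 and 1924 against 467, 1037 and 453 CPM (1.298 ± 0.18, adjusted p = 0.000638, edgeR) and *Mobp* rose by 1.17. The 10 oligodendrocyte markers summed to 2384, 3592 and 3022 CPM in rejected and 1393, 2048 and 1010 CPM in kept astrocytes, against 45503 to 70880 CPM in kept oligodendrocytes. The neuronal *Snap25* was higher by 1.18. The part of transcripts from other cells in the remaining differences was not tested.

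Cytosolic ribosomal protein genes and *Malat1* moved in opposite directions within the astrocyte match. Of 82 ribosomal protein genes 36 were higher and none lower, with a median of 0.35 against -0.01 over all genes tested. Within the sub-cluster profiles described later none of them was called, with medians of -0.14 in barcodes like 7 and 14, -0.19 in those like 13 and 0.03 in those like 16. Rps29 had 2106, 5171 and 4452 CPM in rejected and 1307, 3219 and 2043 CPM in kept astrocytes (0.81 ± 0.12, adjusted p = 0.00105, edgeR). *Malat1* (mm10 chr19:5795690-5802672, minus strand) had 78834, 49053 and 50838 CPM in rejected and 125517, 78663 and 105829 CPM in kept astrocytes (-0.83 ± 0.12, adjusted p = 0.00124, edgeR). It was lower on the rejected side of each library, although 3m replicate 1 rejected and 3m replicate 2 kept had nearly the same value. Other nuclear long noncoding RNAs did not follow it. Of the 6 tested within the match *Meg3*, *Kcnq1ot1* and *Rian* were higher and only *Malat1* lower (median 0.42). Over all barcodes *Malat1* did not pass the test (-0.08 ± 0.12, adjusted p = 0.659, edgeR). There 24 of 82 ribosomal protein genes were lower and 2 higher (median -0.15), where 19.1% of all genes were lower and 18.6% higher.

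Per barcode the change in *Malat1* was wider than in the sums. The median astrocyte had 5.33%, 0.736% and 0.612% of its UMIs other than mt- in *Malat1* on the rejected side, and 12.4%, 5.05% and 9.24% on the kept side. Barcodes without a *Malat1* UMI numbered 72 of 544, 37 of 221 and 25 of 155 among rejected astrocytes and 6 of 206, 43 of 534 and 20 of 353 among kept ones. Rejected astrocytes were also shallower, with medians of 3878, 1725 and 1660 against 5003, 2940.5 and 3613 UMIs without mt- genes. With every astrocyte thinned to 1000 UMIs, an alternative chosen after seeing the data, *Malat1* stood at -0.93.

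*Malat1* also went with the mitochondrial share beyond the limit. In 3m replicate 1, which alone had enough barcodes at high shares, *Malat1* in astrocyte-matched barcodes went from 126841 CPM at 5 to 10% mitochondrial UMIs through 86302 at 10 to 20% and 44136 at 20 to 40% to 17477 at 40% and over. Ribosomal protein genes summed to 37936, 41994, 88241 and 200901 CPM in the same bins. From 5 to 10% to 10 to 20%, *Malat1* fell from 77065 to 50487 CPM in 3m replicate 2 and from 101268 to 52231 in 3m replicate 3. The last bin of 3m replicate 1 held 32 barcodes with 53270 UMIs. Rejected barcodes of this library like sub-cluster 16, described later, had a median mitochondrial share of 33.5%. Their median shares of *Malat1* and ribosomal protein genes were 0.0292% and 23.3%. In those like sub-clusters 7 and 14 the 3 medians were 13.3%, 7.17% and 3.83%. The part of this makeup in the trend was not tested.

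**Figure D4:**
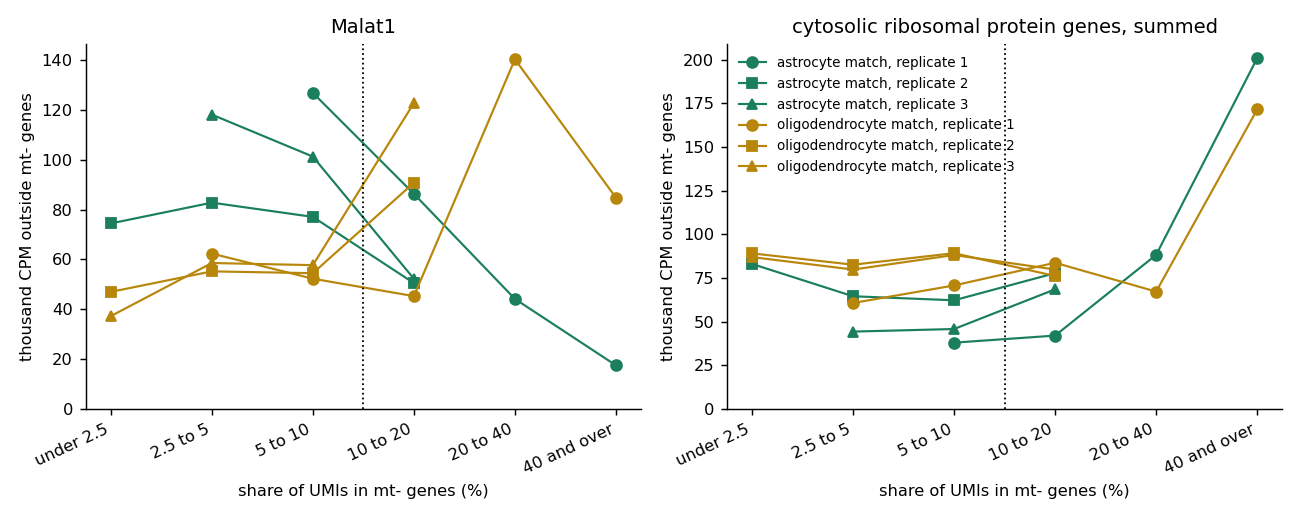
Malat1 (left) and cytosolic ribosomal protein genes (right), in units of 1000 CPM without mt- genes, by bin of mitochondrial share (percent, horizontal axis) in the astrocyte and oligodendrocyte matches of each 3m library, in bins of at least 20 barcodes, with the 10% limit dotted. In the astrocytes of 3m replicate 1 Malat1 falls from 126841 CPM at 5 to 10% to 17477 CPM at 40% and over, while the ribosomal protein genes go from 37936 to 200901 CPM.

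The rejected astrocytes were not a plain sample of the kept ones. The authors had divided astroglial cells into sub-clusters, of which 7, 14, 13 and 16 held the adult ones, with sub-cluster 14 almost wholly from 3m replicate 1 and 7 from the other 2 libraries. In the paper, 13 and 16 grouped with reference astrocytes from outside the telencephalon. The paper proposes that both may stem from tissue next to the striatum. By its maturation genes, 16 was nearer there to early postnatal astrocytes. Astrocyte-matched barcodes were matched again to 3 profiles, 7 with 14, 13, and 16, from the kept cells of the other libraries. This match was chosen after seeing the data, and it is uneven, since it returned the authors' group for 94.9% of kept cells of 7 and 14, 43.1% of 13, and 78.8% of the 85 of 16 that had matched to astrocytes. Profile 13 is the least certain, and the match to it is a likeness and not membership.

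Barcodes like sub-clusters 7 and 14 formed 67.8%, 24.4% and 22.6% of rejected and 95.6%, 73.2% and 79.9% of kept astrocytes. Those like sub-cluster 13 formed 20.04%, 53.4% and 47.1% of rejected against 1.94%, 16.7% and 16.997% of kept ones, and those like sub-cluster 16 12.1%, 22.2% and 30.3% against 2.43%, 10.1% and 3.12%. The direction of all 3 was the same in each library, with mean differences of -44.6, 28.3 and 16.3 points (p = 0.25 each, the smallest the exact sign-flip test can give). The filter removed 65.2%, 12.1% and 11.0% of the barcodes like 7 and 14, 96.5%, 57.0% and 54.9% of those like 13 and 93.0%, 47.6% and 81.0% of those like 16.

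**Figure D5:**
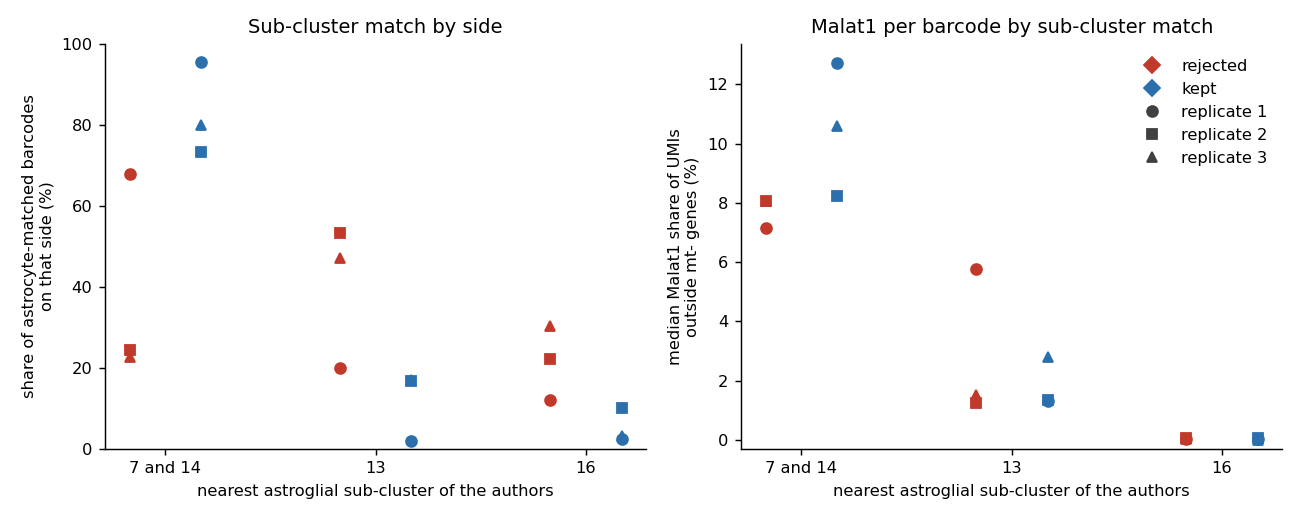
Left, share of astrocyte-matched barcodes (percent) nearest to the authors' sub-clusters 7 and 14, 13, and 16, with a point for each side and 3m library. Right, median share of UMIs in Malat1 per barcode (percent) in the same groups. Profile 7 and 14 averages 38.3% of rejected and 82.9% of kept astrocytes, profile 13 40.2% and 11.9%, and profile 16, where Malat1 is near 0 on both sides, 21.5% and 5.22%.

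The kept cells of these sub-clusters carried the genes that were higher in the rejected astrocytes. *Kif5a* had 4355, 3048 and 3340 CPM in kept cells of sub-cluster 16 (14, 89 and 18 cells) and 5.96, 41.7 and 25.7 CPM in those of 7 and 14. *Trak2* had 925, 798 and 514 against 9.93, 13.2 and 9.43 CPM. *Agt* had 2117, 1217 and 984 CPM in kept cells of sub-cluster 13 (3, 168 and 31 cells) against 64.6, 79.1 and 50.6 CPM in 7 and 14, and *Gria1* 706, 237 and 140 against 2.98, 11.0 and 17.1 CPM. In sub-cluster 13 *Kif5a* had 941, 259 and 78.2 CPM and *Trak2* 188, 91.7 and 22.4 CPM, below sub-cluster 16 in each library. In sub-cluster 16 *Agt* had 299, 324 and 32.1 CPM and *Gria1* 109, 192 and 32.1 CPM, below sub-cluster 13 in each library. Of the genes that fell, *Atp1b1* had 558, 695 and 741 CPM in 7 and 14. It had 47.0, 75.9 and 129 CPM in 13 and 136, 60.0 and 0 CPM in 16. *Hes5*, *Fjx1* and *Acot1* were also lower in 13 and in 16 than in 7 and 14 of each library. *Vim* was lower too, except in sub-cluster 16 of 3m replicate 3 (32.1 against 28.3 CPM).

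Kept cells of sub-cluster 16 had little *Malat1* and much ribosomal protein mRNA. In them the median share of *Malat1* was 0.0293%, 0.0575% and 0.0226%, and that of ribosomal protein genes 28.1%, 22.1% and 32.6%. In sub-clusters 7 and 13 of 3m replicate 2 the median *Malat1* share was 7.02% and 7.12%, and that of ribosomal protein genes 4.24% and 4.43%. In 3m replicate 3 the *Malat1* medians of 7 and 13 were 9.49% and 10.7%. In 3m replicate 1 they were low too, at 0.289% in the 14 cells of sub-cluster 7 and 0.680% in the 3 of sub-cluster 13, with ribosomal protein shares of 4.44% and 6.51%, while the 182 cells of sub-cluster 14 had 13.2% *Malat1*. The low *Malat1* with high ribosomal protein mRNA of sub-cluster 16 thus occurred in cells that passed the filter, at median mitochondrial shares of 4.39%, 5.96% and 6.98%.

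When rejected and kept astrocytes were compared within a profile, few genes were called. Among barcodes like 7 and 14, 3 of 8607 genes were called (0.0349%), among them the nuclear envelope gene *Syne1* at 1.23 and the ribosomal RNA-overlapping Gm26917 at 1.18. There *Kif5a* stood at 0.71 (adjusted p = 0.781, edgeR), *Gria1* at 0.59, *Agt* at 0.40 and *Malat1* at -0.23 (adjusted p = 0.929, edgeR). Of the 651 genes called over all astrocytes 580 were tested within 7 and 14, and 510 of these had the same sign. The sums within 7 and 14 were smaller on the rejected side of 3m replicates 2 and 3, with 110865 and 87019 UMIs against 1561211 in 3m replicate 1, which limits what could be detected there.

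Among barcodes like 13, 25 of 4856 genes were called (0.515%), 22 of them lower, and these included the oligodendrocyte genes *Ermn*, *Mal* and *Mag*. *Itih3* was higher there by 0.98 (adjusted p = 0.0028, edgeR). Among barcodes like 16, 6 of 950 genes were called (0.632%), and *Malat1* was lower by a log2 change of -1.76 (adjusted p = 0.00385, edgeR). The kept side of that fit held only 5, 54 and 11 barcodes, and that of profile 13 only 4 in 3m replicate 1. Per barcode the median *Malat1* share like 16 was 0.0292%, 0.0649% and 0.0334% in rejected and 0.0327%, 0.0507% and 0% in kept barcodes. These medians were higher on the rejected side of 3m replicates 2 and 3, whereas the fit on sums gave a fall. As the profiles themselves contain the genes called, the comparison within a profile is a description of what the match leaves, and not an independent test.

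The comparison was also made close to the limit. Astrocyte-matched barcodes at 10 to 20% were set against those at 5 to 10%, another comparison added after seeing the data. It called 358 of 8502 genes (4.21%), and of the 651 genes called over all astrocytes it called 352. It shares 745 of the 920 rejected and 788 of the 1093 kept barcodes with the full comparison, so it is no independent check. *Kif5a* changed by 1.87, *Gria1* by 2.04 and *Malat1* by -0.72.

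Rejected oligodendrocytes were fewer, with 170, 32 and 39 barcodes, and differed from rejected astrocytes. Of 8820 genes 252 were higher (2.86%) and 55 lower (0.624%) than in kept oligodendrocytes, together 3.48%, and all but 4 also passed 2-fold (2.81% higher, 3.44% together). None of the 10 oligodendrocyte markers and none of 82 ribosomal protein genes was called. The sums of rejected barcodes were small in 3m replicates 2 and 3 (59362 and 75942 UMIs after the filter on low genes).

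Astrocyte markers were among the genes that rose. Of 10 of them 7 were higher (median 2.02), and the astrocyte transporter *Slc6a11* had 95.1, 364 and 12.99 CPM against 6.49, 25.7 and 4.25 (3.50 ± 0.35, adjusted p = 2.08e-19, edgeR), with overlap between the sides across libraries. The astrocyte markers summed to 1728, 3273 and 1858 CPM in rejected and 935, 1330 and 1062 CPM in kept oligodendrocytes, against 15591 to 18784 CPM in astrocyte-matched barcodes. *Ednrb*, *Mpp6*, *Atp1b2* and *Arpp21* rose by 2.80, 2.63, 2.55 and 2.54. The part of transcripts from astrocytes in these rises was not tested.

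Nuclear noncoding RNAs were higher in rejected oligodendrocytes, where they had been mixed in astrocytes. *Neat1*, which scaffolds nuclear paraspeckles, had 1006, 1405 and 1416 CPM against 520, 473 and 397 (1.23 ± 0.30, adjusted p = 0.0037, edgeR), without overlap. *Kcnq1ot1*, *Snhg14* and *Rian* were higher too, 4 of the 6 tested. The median rejected oligodendrocyte had 4.69%, 11.4% and 10.6% of its UMIs in *Malat1* against 4.69%, 4.99% and 5.36% of the kept one, equal in 3m replicate 1 and higher in the others. Its ribosomal protein share was 7.56%, 2.51% and 2.75% against 7.42%, 8.53% and 8.13%. In 3m replicates 2 and 3 these medians, over 32 and 39 barcodes, thus moved against those of the rejected astrocytes in both measures. In the sums *Malat1* was not called. Summed ribosomal protein genes went from 89203 CPM at 5 to 10% mitochondrial UMIs to 76142 at 10 to 20% in 3m replicate 2. In 3m replicate 3 they went from 88154 to 79854 CPM. In 3m replicate 1 they went the other way, from 70719 to 83715 CPM, then 67186 at 20 to 40% and 171522 at 40% and over. In 3m replicate 1 the oligodendrocyte-matched barcodes had 140318 CPM of *Malat1* at 20 to 40% mitochondrial UMIs and 84752 CPM at 40% and over. At 5 to 10% they had 52249 CPM and at 10 to 20% 45260 CPM. Between these 2 bins *Malat1* rose from 54464 to 90760 CPM in 3m replicate 2 and from 57696 to 122743 CPM in 3m replicate 3.

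Genes that fell in rejected oligodendrocytes included *Hopx*, *Acot7*, *Cebpzos*, *Cdc42ep2* and *Cyp20a1*, at -1.68 to -1.26. The microtubule regulator *Stmn1* had 2437, 1488 and 1546 against 3346, 3685 and 3804 CPM (-1.22 ± 0.34, adjusted p = 0.0173, edgeR), and the initiation factor *Eif1* fell by 1.04 on the log2 scale. Both were without overlap between the sides.

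The 66 rejected barcodes of the P3 libraries gave 72577, 42641 and 14374 UMIs after the filter on low genes, and values from them are imprecise. Of 13875 genes 54 were higher (0.389%) and 293 lower (2.11%), together 2.5%, and the median over all genes was -0.86, so changes are to be read against that shift. The shift depended on the scaling, at -0.50 with RLE factors and 0.08 with DESeq2. As at 3m, the haemoglobin genes were missing on the rejected side. *Hbb-bs* had 0 UMIs there and 1137, 1721 and 2345 CPM on the kept side, at least 76.0-fold lower, and *Hba-a1*, *Hba-a2* and *Hbb-bt* were at least 38.8-fold, 27.6-fold and 15.6-fold lower. *Apod* also had none there, at least 4.11-fold lower.

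Some further P3 changes had the sign seen at 3m and others did not. *Meg3* had 330, 2214 and 2149 CPM against 93.7, 46.0 and 42.6 (3.92 ± 0.55, adjusted p = 2.07e-09, edgeR), and *Rian*, from the same imprinted locus, rose by 3.68. The neuronal genes *Eef1a2*, *Chd5* and *Syt7* rose by 5.01, 3.97 and 3.96, on 14, 7 and 8 UMIs, while at 3m *Eef1a2* rose by 2.08 and *Chd5* and *Syt7* did not pass the test (1.32 and 1.11, adjusted p = 0.126 and 0.106, edgeR). Of 9 immediate early genes 5 were lower, with *Fos* at 151, 350 and 208 against 1341, 1254 and 1615 CPM. Of 12 cytoskeletal genes 8 were lower. Of 15 glycolysis genes 1 was higher and 3 lower at P3 (median -1.53), unlike at 3m, and 12 of the 15 had a higher change at 3m by the interaction test described next. None of the 10 astrocyte markers was called at P3, with a median of -1.40, or -0.90 with the member at 0 set to its bound.

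The effect of the filter was compared between ages by the interaction of side and age in 1 edgeR fit over all 6 libraries. Of 13197 genes 973 had a higher change at 3m (7.37%) and 158 a lower one (1.2%), together 8.57%, with a median difference of 0.90 that fell to 0.31 under RLE scaling. The largest positive differences, of *Ccna2*, *Tnfaip8*, *Gstt1*, *Ccnb1* and *Lyrm4*, rest on genes with 0 UMIs in all P3 rejected sums, so no fold is given. For the cyclin *Ccna2* the kept P3 sums held 1705, 1636 and 1956 UMIs. Among the largest negative ones, *Igfbp3* and *Deup1* had all of their 9 and 8 UMIs among P3 rejected barcodes in P3 replicate 2, and both changed sign without that library, to 2.51 and 3.83. The vessel gene *Abcb1a* had 3, 4 and 1 UMIs in the P3 rejected and 5, 0 and 0 in the 3m rejected sums, although the adult sums were much larger. *Podxl* and *Ltbp4* had most of their P3 rejected UMIs, 10 and 13, in P3 replicate 2. The age comparison is one of unlike cell makeups, and their part in it was not tested.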

How the data were processed

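The authors deposited raw UMI counts per gene and barcode, made with Cell Ranger on mm10 and filtered with Seurat 3.1.1 per the submitters' processing notes, and a table of annotated cells with clusters and sub-clusters. The Cell Ranger gene annotation is not given in the sources used here. The counts cover 32285 genes and 16690 barcodes of 6 libraries, 3 per age. The members and gene lists were chosen with earlier results of these data known.

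Barcodes with over 500 genes were divided at 10% of UMIs in the 13 mt- genes, which were then left out. UMIs were summed per library and side and tested with edgeR 4.0.16 in R 4.3.3 (TMM scaling, filterByExpr, quasi-likelihood test, Benjamini-Hochberg adjustment). The library was a block, because both sides of a library come from 1 preparation. For classes, a multinomial likelihood was used with profiles from the kept cells of the other adult libraries and a pseudocount of 1 UMI, and classes without kept cells, such as neurons, cannot be matched. Shares were compared by an exact two-sided sign-flip test and carry 95% Wilson intervals. Python 3.11.15 with numpy 2.4.6, scipy 1.17.1, pandas 2.3.3 and matplotlib 3.10.9 did the rest.

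The text names up to 4 members of each list, by mean CPM, all mt- genes, and the 10 largest called changes each way at 3m (5 within classes, at P3 and between ages) with 1 direction in all libraries, at least 50 CPM on the higher side and a gene name, and 1 gene is not reported here. Members called in lists with few calls, the neuronal genes by class and the genes called within sub-cluster profiles were named after their values were seen. Alternatives were RLE scaling, totals only, DESeq2 1.42.0, no low-count filter, no block, each library left out, barcodes thinned to 1000 UMIs, and other limits. Within classes, the thinned sums, the other limits and the sub-cluster matches were chosen after seeing the data. The fits were tested on simulated data. The simulation gave all genes the same dispersion and both sides of a library the same library effect. It changed only genes above a minimum of UMIs, so the rates hold for that setting and not for genes in general. Of genes changed 4-fold, 94% were recovered in the 3m comparison (12108 genes), 97% within astrocytes (9067 genes) and 82% within oligodendrocytes (8614 genes). At P3 (13965 genes) 10% were recovered, and 12% in the comparison between ages (12787 genes). Of genes changed 2-fold, 43%, 55%, 23%, 4% and 1% were recovered in the same order. A gene not called may therefore still differ.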

Additional observations from a re-analysis of the deposited data

Results flagged for a closer look

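For 10 of the genes named at 3m, the change between rejected and kept barcodes differed between the ages by the interaction test of edgeR. These genes were named for the size of their 3m change, and the same 3m sums enter the interaction. That choice favours a larger change at 3m, so the differences are no independent result. Over all genes 8.57% were called, and the median difference was 0.90, or 0.31 under RLE scaling. Positive differences are to be read against that shift. The value given is the 3m log2 change minus that at P3, with its adjusted p and the range of that p over 9 alternatives.

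Of these, 6 genes had the larger change at 3m. The difference was 2.66 for *Agt* (adjusted p = 2.36e-05, 5.56e-06 to 0.0304), 4.31 for *Fndc5* (1.03e-06, 6.13e-06 to 0.0211) and 3.00 for *Slc6a11* (6.05e-08, 2.86e-11 to 0.000433). It was 4.346 for *Gfap* (6.44e-09, 3.3e-08 to 0.00807) and 3.71 for *Slc25a18* (1.33e-09, 5.14e-10 to 0.000424). For these 5 genes it was called in all 9 alternatives. For *Igsf1* it was 2.46 (0.00956, 0.00462 to 0.281) and was called in 4 of 9, being lost without 3m replicate 1 (1.79, adjusted p = 0.205, edgeR) and without 3m replicate 3 (2.13, 0.106), and under RLE scaling, totals only and DESeq2. The P3 rejected sums held only 2 to 42 UMIs of these genes.

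The other 4 genes had the more negative change at 3m. The difference was -5.98 for *Cldn5* (adjusted p = 1.88e-16, 5.41e-27 to 0.135) and -6.99 for *Ptprb* (3.4e-09, 5.83e-12 to 0.414), each called in 8 of 9 alternatives. The call for *Cldn5* was lost with DESeq2 and that for *Ptprb* without P3 replicate 2, where it stood at -3.88. It was -7.21 for *Abcb1a* (8.2e-09, 5.4e-10 to 0.000336), called in all 9, and -4.53 for *Ly6c1* (0.0229, 0.00227 to 0.878), called in 6 of 9. Without P3 replicate 2 the value for *Ly6c1* was 5.96 (0.878), and without 3m replicate 1 it was -3.51 (0.158). The P3 rejected sums held 42 UMIs of *Cldn5*, 10 of *Ptprb*, 8 of *Abcb1a* and 3 of *Ly6c1*. Groups of 3 libraries are too small for the check on single outlying samples.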

How the results depend on the processing

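Counts here are genes past both the adjusted p and 2-fold. Over all 3m barcodes 2691 passed, 1393 with barcodes thinned to 1000 UMIs, 1336 with rejected barcodes at 20% or more, and 2403 to 2740 with a library left out. Within astrocytes 200 passed, 76 with DESeq2, 342 without the low-count filter, 98 near the threshold, and 2, 21 and 5 within sub-cluster profiles 7 and 14, 13, and 16. Leaving out a library gave 195 to 445, the highest without 3m replicate 1. Within oligodendrocytes 303 passed, 91 with DESeq2, 494 thinned, 84 near the threshold and 132 to 710 with a library left out (132, 158 and 710 without 3m replicates 3, 2 and 1). At P3 347 passed, 149 with RLE, 220 with totals only, 98 with DESeq2 and 7 to 223 with a library left out (223, 7 and 90 without P3 replicates 1, 2 and 3). Between ages 1131 passed, 578 with RLE, 747 with totals only, 585 with DESeq2 and 493 to 1116 with a library left out. Higher calls made up 243 of 445 within astrocytes without 3m replicate 1, 224 of 710 within oligodendrocytes without 3m replicate 1, 77 of 98 at P3 with DESeq2, and 168 of 585 between ages with DESeq2.

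Both sides of a library come from 1 preparation. Without the library as a block 2446 genes passed at 3m, 0 within astrocytes, 174 within oligodendrocytes and 655 at P3.

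These values changed sign, and the cause was not tested. At 3m, *Gapdh* became -0.38 and *Mbp* 0.17 at 20% or more, and *Mbp* 0.075 thinned. Within profile 7 and 14, *Pink1* became -0.012, *Rpl41* -0.15, *Rpl37* -0.15 and *Rps21* -0.022. Within profile 13, *Malat1* became 0.22, *Fth1* -0.58, *Rps29* -0.10, *Rpl41* -0.35, *Rpl37* -0.38, *Rps21* -0.28, *Mbp* -0.25 and *Mobp* -0.78. Within profile 16, *Fth1* became -0.20, *Prdx6* 0.41, *Rpl41* -0.0046, *Mbp* -0.50 and *Mobp* -0.63. With a library left out, the difference between ages ran from -10.09 to 2.51 for *Igfbp3* and from -9.50 to 3.83 for *Deup1*, both positive without P3 replicate 2. The microglial share difference ran from -0.986 to 0.0439 points with a library left out, the last without 3m replicate 1, and became 0.970 with a marker classifier and 1.54 at 20% or more.

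The astrocyte share difference stayed between 42.7 and 47.2 points, and the oligodendrocyte one between -39.0 and -35.4, with a library left out. The rejected sums of P3 and of oligodendrocytes in 3m replicates 2 and 3 limit what their tests could detect, and within oligodendrocytes the limit of 20% was not run for lack of barcodes.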
